A study of Schizosaccharomyces pombe with 72 samples.

Results

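The cell wall glucan synthases of fission yeast were followed as 9 genes, bgs1, bgs2, bgs3, bgs4, ags1, mok11, mok12, mok13 and mok14. They were taken as the rows of the count table that carried these symbols, each symbol had 1 row, and the 9 rows stood among 7014 gene rows. The wall of this yeast is built mainly from beta-glucan and alpha-glucan chains made at the plasma membrane. Bgs1 makes the linear beta-glucan of the primary septum, Bgs4 the main branched beta-glucan of the wall, Bgs3 is an essential synthase of growing cells, and Bgs2 acts in the spore wall. Ags1, also called Mok1, makes the alpha-glucan of the vegetative wall, and Mok11 to Mok14 are its relatives, of which Mok12, Mok13 and Mok14 are known mainly from sporulation. Glucanases such as Eng1 and Agn1 open the septum so that daughter cells part.

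RNA sequencing after removal of ribosomal RNA by probes covered 72 libraries, 12 in each of 6 conditions. Cells of the groups named V25 and V36.5 cycled in the rich medium YES, at 25°C or after a single doubling at 36.5°C, and cells of G1_36.5 carried the cdc10-129 allele and were arrested in G1 at 36.5°C. For T0-N, cells grown in the synthetic medium EMM2 spent 24 hours without a nitrogen source at 25°C, and their cultures were then split and kept starved for 4 further days at 25°C (T4D25) or 36.5°C (T4D36.5), so the 3 starved groups shared cultures. Each condition held 4 strains with 3 replicates, coded 86, 92, 93 and 97 in 5 conditions and 82, 83, 84 and 85 in G1_36.5. The study's genotypes were wild-type, the cohesin loader mutant mis4-G1487D, the TORC1 subunit mutant mip1-R401G and the double mutant, on a mat1-M-smt0 background that keeps mating type M, but the labels did not pair codes with genotypes, and no genotype was compared here. Arrest and the cdc10-129 strains could not be told apart, and T0-N differed from V25 in medium as well as in nitrogen.

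By the table's annotation (build ASM294v2), bgs1 (SPBC19G7.05c) lay on chromosome II at 2350922 to 2357405, bgs2 (SPAC24C9.07c) on chromosome I at 3053214 to 3059282 and bgs4 (SPCC1840.02c) on chromosome III at 2248859 to 2256706, each on the minus strand. The gene bgs3 (SPAC19B12.03) lay on the plus strand of chromosome I at 4882814 to 4889915. Of the alpha-glucan genes, ags1 (SPCC1281.01) spanned 1373096 to 1381763 and mok14 (SPCC63.04) 839962 to 844165 on the plus strand of chromosome III. On chromosome I mok11 (SPAC1527.01) spanned 4375301 to 4382775 on the plus strand, and on chromosome II mok12 (SPBC32H8.13c) spanned 1478007 to 1486116 on the minus strand and mok13 (SPBC16D10.05) 3597571 to 3604899 on the plus strand. Only mok13 had 2 exons, and the other 8 genes had 1. They were long genes: 8 of the 9 were over 6000 bases and ranked between 12 and 63 by length among the 7014, and mok14, at 4204 bases, ranked 335. The RefSeq proteins were 1729 to 1955 residues for the Bgs enzymes, 2352 to 2410 for Ags1, Mok11, Mok12 and Mok13, and 1369 for Mok14. Identity over aligned residues ran from 53.4% to 61.6% between pairs of Bgs proteins and from 40.6% to 52.3% between pairs of the alpha-glucan family. No stretch of 58 bases, the read length, from any of the 9 genes was found elsewhere in the genome, so reads of the relatives could be told apart.

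The 250 bases before the RefSeq gene start (build ASM294v3) are printed for bgs1, bgs4 and ags1, because bgs4 and ags1 moved together through the conditions and bgs1 departed from them. Capitals mark matches, on either strand, to the motifs TTCTTTGTT (the Ste11 TR box) and GTAAACA (forkhead factors), the latter seen here on the reverse strand.
bgs1, chrII:2357365-2357614 (- strand): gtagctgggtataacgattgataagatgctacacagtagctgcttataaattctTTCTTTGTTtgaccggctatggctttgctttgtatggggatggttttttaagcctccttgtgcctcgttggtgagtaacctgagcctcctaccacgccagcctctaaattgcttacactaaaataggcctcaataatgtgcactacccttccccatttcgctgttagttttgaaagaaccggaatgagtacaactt
bgs4, chrIII:2256653-2256902 (- strand): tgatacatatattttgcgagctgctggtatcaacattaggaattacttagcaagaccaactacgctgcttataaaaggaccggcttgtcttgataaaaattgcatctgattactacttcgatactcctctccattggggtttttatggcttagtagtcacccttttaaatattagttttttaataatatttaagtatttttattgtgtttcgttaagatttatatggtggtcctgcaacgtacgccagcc
ags1, chrIII:1372847-1373096 (+ strand): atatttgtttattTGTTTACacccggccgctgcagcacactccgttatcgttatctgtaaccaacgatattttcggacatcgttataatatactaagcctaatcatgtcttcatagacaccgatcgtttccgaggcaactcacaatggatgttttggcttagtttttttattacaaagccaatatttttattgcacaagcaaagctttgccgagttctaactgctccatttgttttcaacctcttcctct
Motifs were searched from 250 bases before to 50 after the start in 8 of the 9 genes, bgs3 not being analysed here, and in all 5112 promoters. For bgs2 and mok14 the RefSeq gene start is the start of the coding sequence (0 leader bases, against 135 to 1506 in the others). Their windows may therefore miss the bases before the transcript start. The TR box in bgs1 lay at bases -196 to -188, counted back from -1 at the base before the start, and 2.00% of all promoters held it. The forkhead motif lay in 2 of the 8 promoters (ags1 at -237 to -231, mok13 at -52 to -46), against 16.5% of all promoters. The heat shock letters GAANNTTC were found in mok12 alone of the 8, against 11.1%. The letters TGACGT (5.91% of promoters) and GTAAATA (16.2%) were in none of the 8, and none of the 5 motifs was in bgs4. A match describes letters and not a bound site. Between 56.8% and 75.6% of the bases of the 8 windows were A or T, against a median of 68% over all promoters.

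Counts on genes per library ran from 1173880 to 7664476 (median 4021412), and the lowest count of any of the 9 genes in any library was 114. Values are given in CPM (each library's counts rescaled to a common total) after TMM scaling between libraries, and changes are log2 fold changes with standard errors. The levels of genes given as markers (of nitrogen deprivation, heat, mating type, septation and sporulating cells) are the exception, being CPM without TMM scaling. For the marker eng1 the medians in V25 and T0-N were 485 and 36.3 CPM without it, and 550 and 39.8 with it. The adjusted p-values came from quasi-likelihood fits in edgeR, by the Benjamini-Hochberg method over all genes tested. Of the label markers, 4 of 5 for nitrogen deprivation rose in T0-N (isp6, a protease, from a median of 85.1 to 2000.2 CPM). In V36.5 3 of 3 heat shock genes rose, and in G1_36.5 3 of 3 targets of the Cdc10 complex were lower than in V36.5. From T4D25 to T4D36.5, however, only 1 of the 3 heat shock genes rose and 1 fell. The medians there were 149 and 656 CPM for hsp16, and 254 and 213 for hsp104. Mating type M genes rose in T0-N (mfm1 from a median of 0.364 to 7941 CPM), while the P cell gene map3 was at a median of 9.76 CPM there. Libraries numbered replicate 3 were higher in long transcripts: genes over 6000 bases stood 0.14 above their group means on the log2 scale, and genes under 500 bases 0.11 below. In replicate 3 the 9 genes stood, on average, between 0.31 above (bgs3) and 0.0029 below (mok14) their group means. The labels call the replicate number a batch. Of the comparisons that follow, nitrogen deprivation and heat in cycling cells share the V25 libraries, heat in cycling cells and G1 arrest those of V36.5, nitrogen deprivation and the 4 further days those of T0-N, and the 4 days and heat in starved cells those of T4D25.

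In cycling cells at 25°C bgs4 was the most abundant transcript of the 9 per length, followed by ags1. The medians were 278 CPM per kb for bgs4, 195 for ags1, 103 for bgs3, 98.9 for bgs1, 30.6 for mok14, 26.1 for mok11, 14.2 for mok13, 11.1 for mok12 and 9.08 for bgs2. The ranges over 12 libraries overlapped for bgs3 (82.3 to 130) and bgs1 (90.7 to 111), for mok14 (26.7 to 36.8) and mok11 (22.4 to 29.4), and among mok13, mok12 and bgs2, whose lowest and highest values were 7.08 and 18.2. Against all 6396 genes compared at V25, bgs4 was above 93.2% and bgs2 above 26.1%. The genes of the vegetative wall and septum thus stood above the relatives known from sporulation in these cells, by a gap with no overlap.

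**Figure D1:**
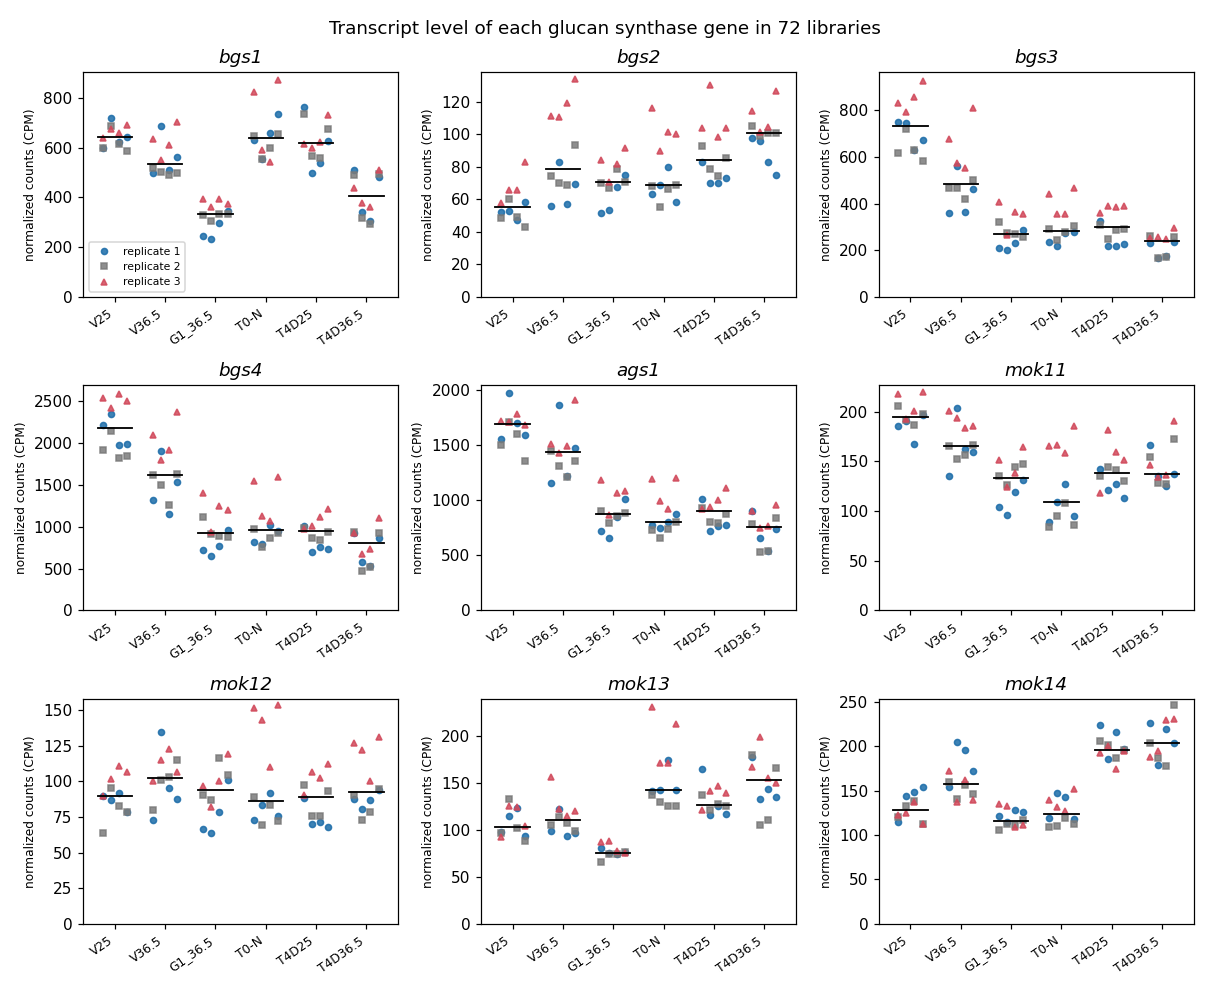
CPM of each of the 9 glucan synthase genes in every library by condition (1 point per library, 12 per condition, bar at the median). The genes bgs3, bgs4 and ags1 stand lower in T0-N than in V25 with no overlap, and bgs1 has almost the same median in the 2 conditions.

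Nitrogen deprivation separated bgs1 from the other vegetative synthases. The gene bgs3 was 584 to 926 CPM (median 733) in the 12 V25 libraries and 218 to 468 (median 284) in the 12 T0-N libraries. The levels of bgs4 were 1816 to 2582 (median 2181) in V25 and 759 to 1596 (median 964) in T0-N. For ags1 they were 1356 to 1968 (median 1689.8) and 652 to 1202 (median 799). For each of these 3 genes all 12 starved libraries lay below all 12 cycling ones. The log2 changes were -1.25 ± 0.13 for bgs3 (adjusted p = 1.3e-12), -1.10 ± 0.11 for bgs4 (2.4e-12) and -0.95 ± 0.092 for ags1 (3.8e-13). Primary septum synthase bgs1, in contrast, was 588 to 719.7 CPM (median 641) in V25 and 544 to 873 (median 639.8) in T0-N. Its starved libraries lay on both sides of the cycling ones, 3 above all of them and 3 below, and its log2 change, averaged over the 4 strains, was 0.0044 ± 0.065 (adjusted p = 0.96). The strains did not move one way: the mean of the 3 libraries went from 612 to 701 CPM in strain 86 and from 641 to 754 in strain 97, and from 694 to 567 in strain 92 and from 631 to 601 in strain 93. The change was therefore positive in 2 of the 4 strains, with a range of -0.29 to 0.23 on the log2 scale. With the trend with gene length removed, an alternative chosen after the data were seen, the averaged change was 0.11 ± 0.047 and passed (adjusted p = 0.0279).

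The alpha-glucan relatives went separate ways on nitrogen deprivation. The gene mok11 was 167 to 219.7 CPM (median 195) in V25 and 83.4 to 186 (median 109) in T0-N, and 11 of its 12 starved libraries lay below every cycling one. It fell by 0.71 ± 0.10 on the log2 scale (adjusted p = 1.6e-08). For mok13 the levels were 88.5 to 133 (median 103) and 125 to 231 (median 142), with 9 of 12 starved libraries above every cycling one, and it rose by 0.54 ± 0.093 (adjusted p = 8.4e-07). The spore wall synthase bgs2 rose from 43.0 to 83.2 (median 55.1) to 55.0 to 116 (median 69.0), with overlap, a log2 change of 0.44 ± 0.13 (adjusted p = 0.0027). The log2 change was 0.13 ± 0.12 for mok12 (adjusted p = 0.33) and -0.044 ± 0.069 for mok14 (0.56). In all 6 of the 9 genes were called, 4 lower and 2 higher, where 82.1% of the 6336 genes tested were called. The 67 tested genes over 6000 bases had a median log2 change of -0.20, with 33 lower and 21 higher, and the median over all genes was 0.12, or 0.010 with the ribosomal RNA genes left out. All 5 septation wave markers fell in the same comparison (eng1 from a median of 485 to 36.3 CPM), and their part in the changes of the synthases was not tested. In bulk RNA, fewer cells of a kind and less RNA per cell cannot be told apart.

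Within the beta-glucan family these changes altered the proportions. The level of bgs1 per length was 0.375 times that of bgs4 in V25 (range 0.305 to 0.409) and 0.820 times in T0-N (0.616 to 0.937), and the ranges did not overlap. Of the summed CPM per kb of the 4 bgs genes, bgs1 made up a median of 21.3% in V25, 36.3% in T0-N, 36.4% in T4D25 and 30.7% in T4D36.5. The share of bgs4 was 56.7% in V25 and 44.7% in T0-N, and that of bgs3 was 20.8% and 15.3%. The ratio of bgs3 to bgs4 stayed between medians of 0.310 and 0.365 in all 6 conditions. The share of bgs2, smallest in every condition, was 1.89% in V25 and 8.20% in T4D36.5.

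**Figure D2:**
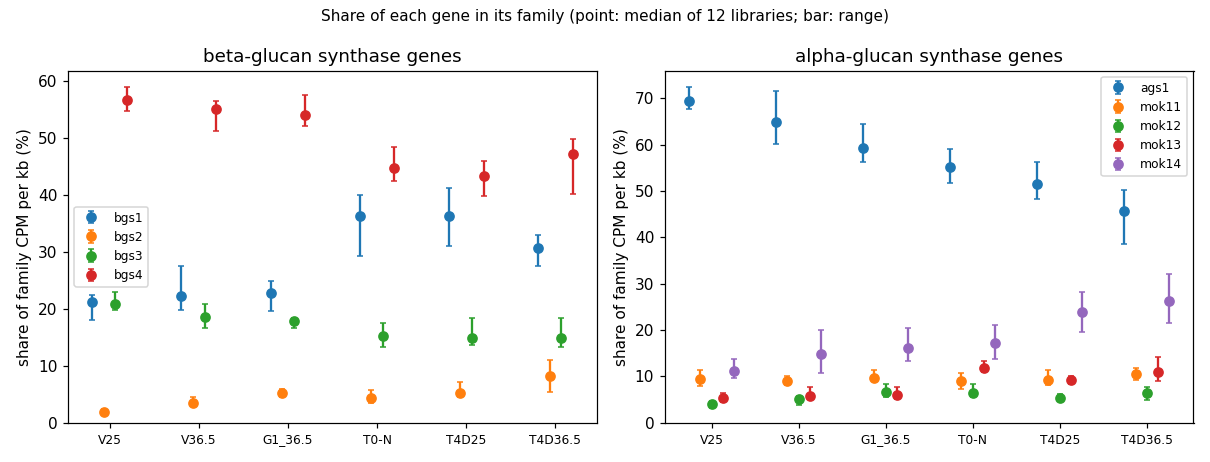
Share of each gene in the summed CPM per kb of its family (percent), by condition, for the beta-glucan genes (left) and the alpha-glucan genes (right), with points at the median and bars from the lowest to the highest of 12 libraries. The bgs1 share is 21.3% in V25 and 36.3% in T0-N, and the ags1 share is 69.5% in V25 and 45.7% in T4D36.5.

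In the alpha-glucan family the share of ags1 was largest in every condition and lowest in starved cells. It was 69.5% in V25, 64.8% in V36.5, 59.3% in G1_36.5, 55.2% in T0-N, 51.5% in T4D25 and 45.7% in T4D36.5. The share of mok14 was 11.1% in V25 and 26.3% in T4D36.5, and that of mok13 5.26% in V25 and 11.9% in T0-N. The ranges of V25 and T4D36.5 did not overlap for ags1 and mok14, nor did those of V25 and T0-N for mok13. The share of mok11 stayed between medians of 9.02% and 10.5%.

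During the 4 further days of starvation at 25°C mok14 rose. Directions within the starved groups are relative to the other genes of a library. Its levels were 109.6 to 152 CPM (median 123.2) in T0-N and 175 to 224 (median 196) in T4D25, without overlap, and the log2 change was 0.61 ± 0.068 (adjusted p = 2.8e-10). The other call was mok13, which fell from 125 to 231 (median 142) to 115 to 164 (median 126), with 6 of 12 later libraries below every earlier one. Its log2 change was -0.29 ± 0.092 (adjusted p = 0.0072), and the call was lost without replicate 1 (0.0696) or replicate 3 (0.169). Thus 2 of the 9 genes were called, where 52.3% of genes were. With the replicate number as a block bgs2 (adjusted p = 0.029), bgs4 (0.035) and mok11 (0.026) were called too, making 5, where 60.9% of genes were called in that fit. The starved groups came from split cultures, so a fit with strain and replicate number together as a culture block was added after the values were seen, and it called the same 5 genes, where 63.2% of genes were called. Of the 12 pairs of T0-N and T4D25 libraries with the same strain and number, mok14 was higher in the later library in 12, mok11 in 10 and bgs2 in 9, and mok13 was lower in 10 and bgs4 in 7. With the trend with gene length removed 7 of the 9 genes were called, where 50.5% of genes were, and mok14 alone of them rose. The log2 changes of bgs1 (-0.088 ± 0.065), bgs3 (-0.061 ± 0.12) and ags1 (0.0052 ± 0.091) did not pass in the first fit or with either block, but were among the 7. With library sizes taken from the spike-in RNA the median gene stood 0.95 higher in T4D25, mok14 stood 1.56 higher and mok13 0.67 higher. This scaling moves all genes of a library alike, so a gene's place against the median gene is no separate check.

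Heat lowered bgs1 more in starved cells than in cycling cells. In cycling cells its levels were 588 to 719.7 CPM (median 641) at 25°C and 489 to 704 (median 535) at 36.5°C, with 8 of 12 heated libraries below every unheated one. In cells starved for the 4 further days they were 499 to 762 (median 619) at 25°C and 293.95 to 510.1 (median 407) at 36.5°C, with 10 of 12 below. The log2 change was -0.15 ± 0.065 in cycling cells (adjusted p = 0.044) and -0.59 ± 0.066 in starved cells (7.4e-11). The difference between these responses, tested in the same fit, was -0.44 ± 0.093 (adjusted p = 6.2e-05), and it kept its call in every alternative that was fitted. Heat lasted a single doubling in the cycling cells and 4 days in the starved cells, and the media differed. Growth state, length of heat and medium cannot be told apart in this difference. The cycling cells' own change did not pass without replicate 1 (0.0535), without replicate 2 (0.232) or when the genes tested were limited to those counted at least 10 times in each library (0.242).

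In cycling cells 5 of the 9 genes changed with heat, where 63.4% of genes were called. That number was 3 without replicate 1, 4 without replicate 2 and 8 without replicate 3, while the count over all genes stayed between 3086 and 3965. The vegetative synthases bgs3 and bgs4 fell: bgs3 from a median of 733 to 484 CPM (361 to 811 at 36.5°C), with a log2 change of -0.46 ± 0.12 (adjusted p = 0.0012), and bgs4 from a median of 2181 to 1621 (1147 to 2374), by -0.35 ± 0.11 (0.0058). The spore wall synthase bgs2 rose from a median of 55.1 to 78.8 (56.0 to 134), by 0.64 ± 0.13 (adjusted p = 4.9e-05), and mok14 from 129 to 158 (137 to 205), by 0.36 ± 0.069 (1.3e-05). The ranges overlapped in each case. Neither ags1 (-0.15 ± 0.091, adjusted p = 0.14) nor mok12 (0.24 ± 0.12, 0.092) passed, but both did with the replicate block (0.0325 and 0.0058), which called 70.2% of genes. The changes of mok11 (-0.15 ± 0.10) and mok13 (0.10 ± 0.094) did not pass in either fit. The call of bgs4 was lost without replicate 1 (adjusted p = 0.0504), and ags1, mok11 and mok12 gained calls without replicate 3.

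In starved cells 5 of the 9 genes changed with heat, against 68.8% of genes, and the number was 3 without replicate 1, 1 without replicate 2 and 5 without replicate 3. Besides bgs1, the falls were those of bgs3 (median 301 to 241 CPM, log2 change -0.39 ± 0.13, adjusted p = 0.0063), bgs4 (954 to 801, -0.27 ± 0.11, 0.031) and ags1 (900.2 to 758, -0.23 ± 0.092, 0.027), and mok13 rose relative to the other genes (126 to 153, 0.24 ± 0.093, 0.019). Between T4D25 and T4D36.5 libraries of the same strain and number, ags1 was lower at 36.5°C in 12 of 12 pairs, as bgs1 was, bgs3 and bgs4 were lower in 11, and mok13 was higher in 10. Without replicate 2, in a fit that does not pair these libraries, none of these 4 passed (adjusted p = 0.0811 for bgs3, 0.235 for bgs4, 0.197 for ags1 and 0.0587 for mok13). Without replicate 1, ags1 (0.0609) and mok13 (0.129) did not pass, and without replicate 3 mok13 did not (0.0787). Outside the calls, bgs2 had medians of 84.5 and 101 CPM and a log2 change of 0.23 ± 0.13 (adjusted p = 0.11), which passed with the replicate block (0.0024), where 74.9% of genes did, and it was higher in 11 of 12 pairs. The culture block called 7 of the 9 genes, the first 5 with bgs2 (0.0017) and mok12 (0.0372), where 76.6% of genes were called. Without a block the change of mok12 was 0.19 ± 0.12, and those of mok11 (0.12 ± 0.10) and mok14 (0.10 ± 0.068) did not pass in these fits. On the spike-in scale the median gene stood at -0.95 in T4D36.5 and the 9 genes ran from -1.54 (bgs1) to -0.73 (mok13). The places of bgs1 below and mok13 above the median gene carry over by construction, because the scaling moves all genes of a library alike. The change of mok13 itself turned from a rise to a fall. Of the genes called, 51.5% were higher by TMM and 10.2% by spike-in scaling, and for the 4 days at 25°C these shares were 45.6% and 98.5%. All 4 markers of sporulating cells rose with heat in starved cells (mei4, a meiotic transcription factor, from a median of 38.9 to 303.5 CPM), but the kinase regulator gene spo6 was at a median of 0.493 CPM and the spore coat gene isp3 at 16.6.

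The other difference between the heat responses was that of mok14, at -0.26 ± 0.10 (adjusted p = 0.02), so 2 of the 9 genes differed, where 61% of genes did. It did not pass without replicate 1 (0.171), without replicate 2 (0.168) or without the ribosomal RNA genes (0.0895). With the replicate block bgs2 (-0.41 ± 0.19 and adjusted p = 0.053 without the block, 0.0013 with it) and mok11 (0.26 ± 0.14, 0.11 and 0.031) passed as well, making 4, where 67.8% of genes passed. With the trend with gene length removed bgs1, bgs4, mok11 and mok13 passed and mok14 did not (0.215), again 4 of the 9, where 60.5% of genes did. Leaving out a replicate gave 1 to 3 of the 9. For bgs3, bgs4 and ags1 the difference was 0.075 ± 0.18, 0.081 ± 0.16 and -0.073 ± 0.13.

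**Figure D3:**
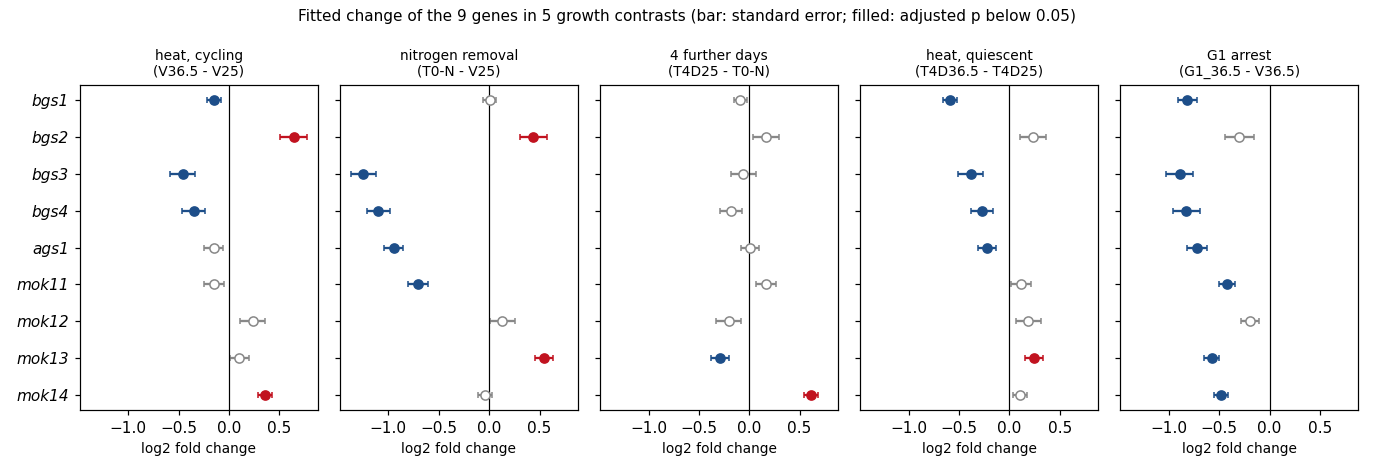
Log2 fold change of the 9 genes in each comparison of conditions, with bars of 1 standard error, from the edgeR fits with TMM scaling. Filled points passed the threshold, red for higher and blue for lower. The bgs1 change is near 0 on nitrogen deprivation, where bgs3, bgs4 and ags1 lie between -1.25 and -0.95, and it is the lowest of the 9 under heat in starved cells. On the spike-in scale, which applies to the starved groups alone, the rises under heat there become falls and the falls over the 4 days become rises.

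All 9 genes had negative log2 changes in G1-arrested cells against cycling cells at 36.5°C, and 7 passed, where 68.6% of the 6219 genes tested did, but mok12 turned positive (0.10) once the trend with gene length was removed. The level of bgs1 was 489 to 704 CPM (median 535) in V36.5 and 234 to 395 (median 335) in G1_36.5, without overlap, with a log2 change of -0.82 ± 0.093 (adjusted p = 1.6e-07). For bgs3 the medians were 484 and 271 (-0.89 ± 0.13, 6e-06), for bgs4 1621 and 924 (-0.83 ± 0.13, 1.3e-05) and for ags1 1435 and 873 (-0.72 ± 0.10, 1.2e-06), with 9 to 11 of the 12 arrested libraries of each below every cycling one. The smaller falls were those of mok13 (median 110.4 to 75.9 CPM, -0.57 ± 0.075, adjusted p = 9.5e-07) and mok14 (158 to 116, -0.48 ± 0.069, 3.7e-06), both without overlap, and of mok11 (166 to 133, -0.43 ± 0.08, 8.6e-05). The remaining genes, bgs2 (-0.30 ± 0.14, adjusted p = 0.065) and mok12 (-0.19 ± 0.086, 0.052), passed with the replicate block (0.0031 and 0.0085), making 9, where 74.8% of genes passed. Genes over 6000 bases had a median change of -0.31 here, 41 lower and 7 higher of 67, and genes under 500 bases 0.22, and with the trend removed bgs1 stood at -0.54 and ags1 at -0.41. All 5 septation wave markers fell here too (eng1 from a median of 496 to 37.3 CPM).

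Strains differed most clearly in starved cells at 36.5°C, where 2 of the 9 genes passed the test across the 4 strains and 25.7% of the genes tested did. For bgs1 the 3 libraries of strain 86 were 510.1, 492 and 437 CPM, and those of strain 97 were 481, 495 and 509. Strain 92 gave 341, 316 and 376, and strain 93 gave 305, 293.95 and 360.03. The 6 libraries of strains 92 and 93 lay below the 6 of strains 86 and 97 (F = 10.7, adjusted p = 0.0056). For bgs4 the values were 927, 934 and 923 in strain 86, 868, 924 and 1101 in strain 97, 583, 467 and 669.8 in strain 92, and 528, 516 and 734 in strain 93. The same pairs of strains separated, again without overlap (F = 9.59, adjusted p = 0.0079). Neither call was kept without replicate 1 (0.0760 for bgs1, 0.0738 for bgs4) or replicate 2 (0.289 and 0.271), and with the replicate block ags1 (0.0083) and bgs3 (0.0151) passed as well, making 4, where 39.4% of genes passed. On the spike-in scale all 9 genes and 74.1% of the genes tested differed between strains here. Depth in T4D36.5 split along the same strains in replicates 1 and 2. Counts on genes there were 2154801 to 2592589 in strains 92 and 93, and 3828907 to 4617602 in strains 86 and 97. In replicate 3 the depths of the 2 pairs of strains overlapped. The part of depth in the strain differences was not tested.

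Among cycling cells at 25°C, where 19.1% of genes differed between strains, only mok13 of the 9 did (F = 6.25, adjusted p = 0.04). Its 3 libraries were 97.3, 96.2 and 92.6 CPM in strain 86, 93.3, 88.5 and 105 in strain 97, 115, 133 and 125 in strain 92, and 124, 102 and 125 in strain 93. Strain 92 stood above strains 86 and 97 without overlap, and strain 93 overlapped strain 97. The call was lost without any of the 3 replicates (0.0914 to 0.263).

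In the other 4 conditions 0 of the 9 genes passed, where 6.31% of genes did in V36.5, 10.9% in G1_36.5, 0.923% in T0-N and 1.8% in T4D25. At an unadjusted p under 0.05 the edgeR counts were 0, 1, 0 and 1, and DESeq2 called 0 after adjustment in each of these conditions, with 0, 1, 1 and 1 before it. The edgeR one in T4D25 was bgs1 (unadjusted p = 0.035). Its means there were 555 and 574 CPM in strains 92 and 93, against 704 and 677 in strains 86 and 97. In T0-N they were 567 and 601, against 701 and 754. Libraries of the 2 pairs of strains overlapped in both groups. The bgs1 split of T4D36.5 was thus also seen, more weakly, in starved cells at 25°C. With the replicate block ags1 (adjusted p = 0.0398), bgs2 (0.0347), mok11 (0.0113) and mok12 (0.0026) passed in G1_36.5, where 27.2% of genes did. In T0-N all 9 genes and 72.7% of the genes tested differed between strains on the spike-in scale. Over the 5 conditions with shared strain codes, the strain differences of bgs1 alone varied with condition (F = 2.75, adjusted p = 0.031), where 24.5% of genes did. That call was lost without replicate 1 (0.686) or replicate 2 (0.931), and with the block it came with ags1 (0.0336) and bgs4 (0.0044), where 43.4% of genes passed. A test limited to the heat response of starved cells, chosen after the strain values were seen, called 0 of the 9 by edgeR and by DESeq2 (0 at an unadjusted p under 0.05 by either), where 9.72% of genes passed, and with the block it called bgs4 (0.0212), where 19.4% of genes passed.

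**Figure D4:**
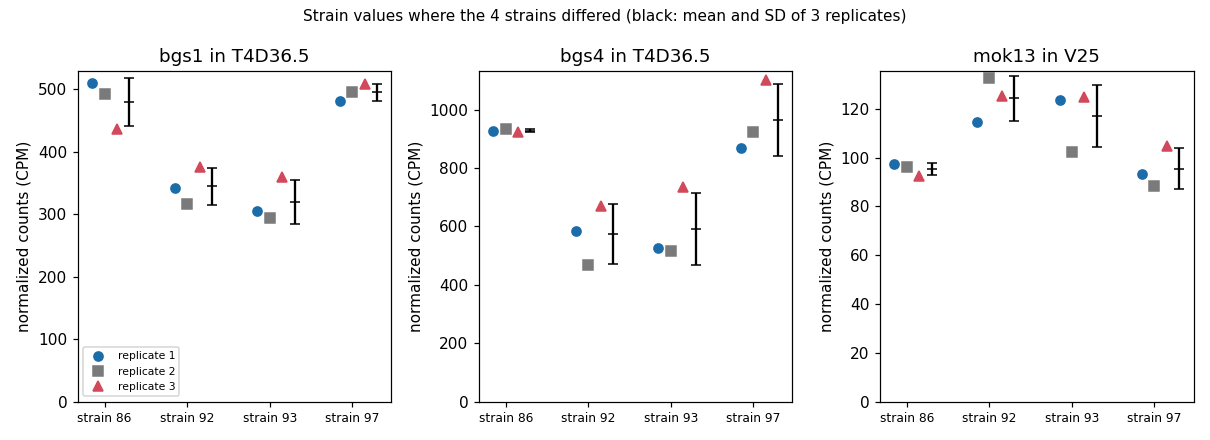
CPM of bgs1 and bgs4 in T4D36.5 and of mok13 in V25 by strain code, with 1 point per replicate and black bars for the mean and SD of the 3. In starved cells at 36.5°C strains 92 and 93 lie between 293.95 and 376 CPM for bgs1, below the 437 to 510.1 of strains 86 and 97.

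The genes whose products work beside the synthases or on the glucans gave the following counts, read against the same background shares. Of all genes tested, 82.1% were called on nitrogen deprivation, 63.4% under heat in cycling cells and 68.8% under heat in starved cells. The shares were 68.6% under G1 arrest and 52.3% over the 4 days, and they apply to each list below. Of 7 septum partners, proteins of the contractile ring or bound to the synthases, 5 fell and 1 rose on nitrogen deprivation. The largest fall was that of smi1, whose product accompanies Bgs4 (-1.35 ± 0.12), and the rise that of sbg1, whose product binds Bgs1 (0.17 ± 0.077, adjusted p = 0.037). Under heat in starved cells 4 fell and 2 rose: cdc15, a membrane-binding ring protein, fell by 0.69 ± 0.072 and sbg1 rose by 0.57 ± 0.078 relative to the other genes. Under G1 arrest 5 fell and 0 rose (cdc15, -1.65 ± 0.083). Heat in cycling cells gave 1 rise and 1 fall, and the 4 days at 25°C 2 of each.

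Of 9 measured beta-glucan hydrolases and transglycosylases (crh1 and crh2 were not analysed here), 5 fell and 4 rose on nitrogen deprivation, including eng1, the septum glucanase (-3.65 ± 0.17), gas2, a transglycosylase (-1.63 ± 0.10), exg3 (1.01 ± 0.11) and exg1 (0.76 ± 0.10), both exoglucanases. Under heat 8 of the 9 fell in starved cells (median -0.84, against 0.0060 over all genes), led by gas4, known from sporulation (-1.70 ± 0.095), and exg1 (-1.16 ± 0.10), while in cycling cells 4 rose and 2 fell and exg1 rose by 0.65 ± 0.10. The same 9 genes gave 5 falls and 0 rises under G1 arrest (eng1, -3.92 ± 0.18) and 5 falls and 2 rises over the 4 days. Of 7 alpha-glucan hydrolases and relatives 5 fell and 1 rose on nitrogen deprivation, with agn1, the septum alpha-glucanase, at -2.03 ± 0.093. They gave 3 falls and 3 rises under heat in starved cells, 3 and 2 in cycling cells, 3 and 2 under G1 arrest, and 4 and 0 over the 4 days.

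Of 14 genes of the spore wall and sporulation, the process in which Bgs2 and Mok12 to Mok14 are known to act, 7 rose and 5 fell on nitrogen deprivation, where bgs2 and mok13 rose and mok12 and mok14 stood at 0.13 and -0.044. The list was led by spo13 (6.14 ± 0.35) and the transcription factor gene rsv2 (3.07 ± 0.20), with spo6 at -3.99 ± 0.56. The changes of spo13 and spo6 involve values near the floor. Their medians in V25 and T0-N were 0.126 and 14.8 CPM for spo13, and 1.28 and 0 for spo6. Heat gave 10 rises and 3 falls in cycling cells (spo13 3.89 ± 0.46, isp3 -1.09 ± 0.19), and 9 rises and 2 falls in starved cells (the transcription factor gene atf21 5.60 ± 0.24, isp3 2.83 ± 0.19). It gave 5 rises and 3 falls under G1 arrest and 2 rises and 8 falls over the 4 days, in which mok14 rose.

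The genes with profiles most like each synthase were sought over the means of the 24 strain and condition groups, among 4939 genes, by Pearson's r of log2 CPM, as a description across groups that share libraries and scaling. The closest genes to bgs3 were bgs4 (r = 0.99), ags1 (0.98) and smi1 (0.98), and the closest 3 to bgs4 and to ags1 were likewise the other members of this trio and smi1. For bgs1 they were SPAC806.06c (0.95), knh2 (0.94) and mac1 (0.94), and r of bgs1 with bgs4 was 0.55. The closest to bgs2 was atg101 (0.89), of autophagy. The ribosomal protein gene rpl1603 (0.91) came first for mok11, while mok12 had no close partner, its first being pcf1 at 0.76.

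Some rows share bases with the synthases and bear on how their values are read. The gene SPCC63.03 lies just upstream of mok14 on the same strand, the annotations overlap by 51 bases, and its profile was the closest to that of mok14 (r = 0.97). Its level per length was a median of 0.706 to 0.796 times that of mok14 in the 6 conditions, and its log2 change over the 4 days was 0.62 ± 0.077, against 0.61 for mok14. Whether reads of a shared transcript entered both rows was not tested. The antisense row of bgs2 (SPNCRNA.880) shares 1318 bases with it on the opposite strand and stood above bgs2 per length, with median ratios from 1.13 (G1_36.5) to 2.60 (T0-N). It rose by 0.78 ± 0.093 on nitrogen deprivation, as bgs2 did, and fell by 0.44 ± 0.093 under heat in starved cells. The antisense row of mok13 (397 shared bases) rose by 1.81 ± 0.23 on nitrogen deprivation and fell by 2.03 ± 0.22 over the 4 days, the directions of mok13.

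The strand setting of the counting is not given in the sources used here, although the library kit keeps strand. Over 192 noncoding rows that lie inside a coding row on the opposite strand, the median log2 ratio of levels per length was -2.63 and 23 stood above their host. The level of mok11 depends on the annotation too: the RefSeq model starts 938 bases further upstream than the table's, so that a neighbouring noncoding row on the same strand (SPNCRNA.982) lies within it. That row rose by 1.36 ± 0.13 under heat in starved cells, where mok11 stood at 0.12 ± 0.10. At the 3' end of bgs3 a noncoding row on the opposite strand (SPNCRNA.1034, 118 shared bases) rose by 2.60 ± 0.27 with heat in cycling cells and 2.53 ± 0.24 in starved cells, while bgs3 fell in both. The remaining overlaps were SPBC19G7.04 with bgs1 (61 bases), alg2 with mok12 (23 bases) and SPNCRNA.879 with bgs2 (24 bases), all on the opposite strand.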

How the data were processed

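The authors deposited a table of counts per gene and library, made from paired-end reads with STAR 2.7.10a and featureCounts 1.5.1 on build ASM294v2, as the submitters' processing notes and the study's methods give them. Whether reads or fragments were counted is not given in the sources used here. The 92 spike-in rows were left out of library sizes and tests. Genes were filtered with filterByExpr, scaled by TMM and fitted in edgeR 4.0.16 (glmQLFit, glmQLFTest) with a mean per strain and condition, over 60 libraries for the 5 conditions with shared strain codes, over the 24 libraries of V36.5 and G1_36.5 for G1 arrest, and within each condition for strains. The threshold was an adjusted p of 0.05. The standard error is the log2 change divided by the square root of F. The likelihood ratio test, DESeq2 1.42.0, other scalings and filters, a replicate block and leaving out each replicate were alternatives, and the fitting was tested on simulated data. The removal of the gene length trend, a culture block (strain and replicate number together, over the 36 starved libraries) and the test of strain dependence of heat in starved cells were added after the data were seen.

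The labels name the replicate number a batch. Libraries of different groups with the same number deviated from their group means together (mean correlation 0.248 over 828 pairs, 804 positive), so the numbers pair the samples. Those with different numbers gave -0.122 over 1656 pairs. The deviations within a group of 3 libraries sum to 0, so this negative value follows from the positive one and is no separate check. No 2 replicates agreed within counting noise (chi-square per degree of freedom 5.94 to 64.4). Whether replicates came from separate cultures rests on the study's description as biological triplicates. Named members were all 9 genes. Of each context list the 2 largest changes in each direction that passed could be named. The members and lists were chosen with earlier results of these data known. Some items, among them 1 context list and the promoter of bgs3, are not reported here.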

Additional observations from a re-analysis of the deposited data

Results flagged for a closer look

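The heat response of bgs1 differed between starved and cycling cells: the log2 change in starved cells minus that in cycling cells was -0.44 (-0.59 against -0.15). The same test gave a difference of -0.26 for mok14 (0.10 against 0.36). In both, growth state cannot be told apart from length of heat and medium. The strain differences of bgs1 varied with condition (adjusted p = 0.0311 by edgeR). Groups held 3 or 12 libraries, sizes for which single libraries far from their group were not sought.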

How the results depend on the processing

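Over the 5 comparisons of conditions and the difference of the heat responses, 684 values of single genes under alternatives were compared with the main ones, and 579 kept direction and call, 47 gained a call, 24 lost one and 34 changed sign. Of 900 strain test values 857 kept their side of the threshold, 30 gained a call and 13 lost one. The causes of the following changes were not tested. Most of the changes of sign were of values that had no call: on nitrogen deprivation bgs1 stood at -0.031 with DESeq2 and -0.031 with its size factors, -0.0075 with no filter, -0.0069 with the spike-in rows included and -0.11 without ribosomal RNA genes, and mok14 at 0.030 where 10 counts were needed in every library. With the length trend removed, mok13 under heat in cycling cells stood at -0.0029, ags1 over the 4 days at -0.16 and mok12 under G1 arrest at 0.10, and in the difference of the heat responses ags1 stood at 0.044 and mok12 at 0.064. That difference for mok12 was 0.023 with DESeq2, 0.021 with its size factors and 0.012 without ribosomal RNA genes. On the spike-in scale the changes over the 4 days were 0.88 (bgs1), 0.95 (bgs3), 0.80 (bgs4), 0.76 (mok12) and 0.67 (mok13), and those under heat in starved cells -0.78 (bgs2), -0.85 (mok11), -0.81 (mok12), -0.73 (mok13) and -0.83 (mok14).

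Leaving out each replicate gave ranges of -0.013 to 0.11 for mok13 under heat in cycling cells, of -0.041 to 0.025 (bgs1), -0.094 to 0.22 (mok12) and -0.15 to 0.018 (mok14) on nitrogen deprivation, of -0.050 to 0.12 (ags1) and -0.31 to 0.0031 (mok12) over the 4 days, and of -0.028 to 0.21 (bgs3), -0.018 to 0.17 (bgs4) and -0.13 to 0.13 (mok12) for the difference of the heat responses. The number of the 9 genes called then ran from 3 to 8 for heat in cycling cells, 1 to 3 over the 4 days, 1 to 5 for heat in starved cells, 1 to 3 for the difference of the heat responses, 0 to 0 between strains in V25, 0 to 4 in T4D36.5 and 0 to 4 for strain by condition, and stayed at 6 on nitrogen deprivation and 7 under G1 arrest. Over all genes the counts ran from 2068 to 3369 for the 4 days, 3460 to 4214 for heat in starved cells and 2923 to 3695 for the difference of the heat responses. Between strains they ran from 274 to 916 in V25, 22 to 175 in V36.5, 23 to 424 in G1_36.5, 1 to 24 in T0-N, 13 to 111 in T4D25 and 191 to 1346 in T4D36.5. They ran from 266 to 1271 for strain by condition and from 68 to 424 for strain dependence of heat in starved cells.

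With the replicate block the number of the 9 genes called was 5 over the 4 days, 4 for the difference of the heat responses, 4 between strains in G1_36.5, 4 in T4D36.5, 3 for strain by condition and 1 for strain dependence of heat in starved cells. The block changed no call other than those given with the results. The culture block called 5 over the 4 days. The replicate block called 1832 genes between strains in V25 (1059 without it), 1043 in V36.5 (376), 1694 in G1_36.5 (676), 487 in T0-N (55), 492 in T4D25 (107), 2375 in T4D36.5 (1548), 2752 for strain by condition (1554) and 1231 for strain dependence of heat in starved cells (616).

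On the spike-in scale 9 of the 9 genes and 5367 genes in all were called over the 4 days, and 9 of the 9 under heat in starved cells. Between strains it called 9 of the 9 and 4331 genes in T0-N, 50 genes in T4D25, and 9 of the 9 and 4462 genes in T4D36.5. It was not run for V25, V36.5 and G1_36.5, where libraries held 0 to 33 spike-in counts. The likelihood ratio test called 599 genes between strains in V36.5, 175 in T0-N and 246 in T4D25, DESeq2 called 568, 182 and 213, and a minimum of 10 counts left 33 in T0-N. Of the 9 genes, DESeq2's size factors called 3 under heat in starved cells and 0 for strain by condition, the minimum of 10 counts 0 for strain by condition, and leaving out ribosomal RNA genes 1 for the difference of the heat responses. With the length trend removed 7 were called over the 4 days, 4 for the difference of the heat responses, 0 between strains in V25 and 0 for strain by condition. Depth, at a median of 2403680.5 counts, was lowest in T4D36.5.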
